A study of Mus musculus with 2 samples.

Results

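Matricellular proteins are secreted into the extracellular matrix, where they act on cell adhesion and signaling more than as scaffold. Fibronectin (Fn1) is an adhesive glycoprotein that is assembled into fibrils and bound by integrins, and it is a known component of the MuSC niche during muscle repair. Tenascin C (Tnc) and periostin (Postn) appear in remodeling matrix and in tendon, and the thrombospondins include the trimeric Thbs1 and Thbs2 and the pentameric Thbs4 and Comp, of which Comp (cartilage oligomeric matrix protein) is abundant in tendon and cartilage. The other members were Cthrc1 (collagen triple helix repeat containing 1, a secreted product of activated fibroblasts), Sparc (a collagen-binding glycoprotein) and Vcan (versican, a large proteoglycan of provisional matrix). These 10 genes were taken from a fixed list of names, which was chosen with earlier results of these data known. All 10 were present among the 32285 genes of the deposited matrices.

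Expression was measured by 10x Genomics 3′ scRNA-seq of cells sorted from plantaris muscle of Pax7rtTA; TRE-H2B-GFP mice, with 1 library after sham surgery and 1 library after 5 days of mechanical overload (MOV), the removal of synergist muscle and tendon. In these mice the Pax7 promoter drives rtTA, which turns on a nuclear GFP under doxycycline. Both groups were 26 weeks old and drank doxycycline (2.0 mg/mL) for 2 weeks in water with 2% sucrose, so no group was free of the drug or the transgenes. The methods of the study describe suspensions from several male and female mice per group, without saying that they were pooled, sorted for VCAM and against CD31, CD45 and SCA1, whereas the labels speak of a single mouse and the design text of GFP signal. The label of the samples is muscle stem cells, and the data went only partly with it, since the sorted cells also held fibroblasts, tenocytes and fragments of muscle fiber. With 1 library per condition no test was possible, and every interval given is a 95% interval for counting error alone.

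The sham library held 1100 cell barcodes with 7302661 UMIs (unique molecular identifiers, 1 per captured transcript), and the MOV library held 3854 barcodes with 88498487 UMIs. After cells with 10% or more mitochondrial UMIs and doublet-like cells were left out, 734 sham and 2985 MOV cells remained. Cells were grouped by UMIs of marker genes, none of which is a member: MuSCs by Pax7, Myf5, Myod1 and other myogenic genes, Pdgfra cells by Pdgfra, Lrrc15 fibroblasts by Lrrc15 and tenocytes by Tnmd. In the MOV library these were 1481 MuSCs, 224 Pdgfra cells, 212 Lrrc15 fibroblasts, 136 tenocytes, 43 cells past both the Lrrc15 and the Tnmd gate, 88 early and 109 late myocytes. In the sham library they were 110 MuSCs, 23 Pdgfra cells, 20 tenocytes and 1 Lrrc15 fibroblast, beside 496 droplets filled with muscle fiber RNA. Markers that formed no gate followed the names in part. Fmod stood at 4839 CPM (UMIs per 1000000) in MOV tenocytes against 35.8 CPM in MOV Pdgfra cells, and Pi16 at 258 CPM in MOV Pdgfra cells against 27.8 CPM in Lrrc15 fibroblasts. Cd248 was also higher in MOV Pdgfra cells than in MOV tenocytes (290 against 11.2 CPM). Other markers checked for Pdgfra cells were lower there than in tenocytes: Dpp4 (34.1 against 68.1 CPM), Dcn (4601 against 12552 CPM) and Col1a1 (7538 against 9131 CPM). A gate by a single gene misses cells that express it without a captured UMI, so these groups are samples of their types.

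The libraries shared 44 cell barcodes, and in each pair 1 copy was far shallower. In 39 pairs the sham copy was the deeper (12279 to 103126 UMIs) and its MOV copy held a median of 2.12% as many UMIs, and in 5 pairs the MOV copy was the deeper. The shared barcodes included 10 of the 110 sham MuSCs, which held 35.1% of the UMIs of that group, the only sham Lrrc15 fibroblast, and 21 of the 51 MOV fiber droplets. None lay among the sham Pdgfra cells, sham tenocytes or sham MuSCs with quiescence markers. A single ungated sham cell held 1108 of the 1150 Postn UMIs of the ungated sham cells. The MuSC ratios between libraries and the levels in sham fiber droplets are given with and without them.

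The genes lie on mm10 (GRCm38) at chr1:71585520-71653200 (Fn1), chr4:63959785-64047015 (Tnc), chr3:54361109-54391037 (Postn), chr15:39076932-39087121 (Cthrc1), chr2:118111876-118127133 (Thbs1), chr17:14665500-14694235 (Thbs2), chr13:92751590-92794818 (Thbs4), chr8:70373558-70382066 (Comp), chr11:55394500-55423183 (Sparc) and chr13:89655312-89742509 (Vcan). Another gene overlaps Fn1, Tnc, Thbs1 and Vcan on the opposite strand, and none overlaps a member on the same strand. Postn, Tnc and Thbs4 are shown by the 120 bases before their start, since they were at 0 or 6 UMIs in sham Pdgfra cells and abundant in MOV Pdgfra cells. RefSeq windows (GRCm38.p6) were matched for 6 of the 10 genes, without Cthrc1, Fn1, Thbs1 and Comp. Capitals mark a match on either strand to 1 of 4 motifs searched: TATAAA for the core promoter element, GGAATG for TEAD, TGANTCA for AP-1 and GGGCGG for SP1.
Postn, chr3:54360987-54361106, plus strand: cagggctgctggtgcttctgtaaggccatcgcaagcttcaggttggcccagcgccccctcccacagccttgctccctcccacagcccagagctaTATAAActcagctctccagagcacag
Tnc, chr4:64047016-64047135, minus strand: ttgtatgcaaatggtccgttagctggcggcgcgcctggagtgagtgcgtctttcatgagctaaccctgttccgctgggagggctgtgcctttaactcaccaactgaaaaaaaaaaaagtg
Thbs4, chr13:92794819-92794938, minus strand: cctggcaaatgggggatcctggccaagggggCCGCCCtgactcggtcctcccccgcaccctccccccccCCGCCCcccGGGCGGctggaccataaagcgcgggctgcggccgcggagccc
The Postn window held the core promoter letters, a TATA box, beginning at position -26, as did 6.34% of all such windows somewhere in these bases. The Thbs4 window held the SP1 letters at 3 places, and 26.5% of all windows held them at least once. The Tnc window held none of the 4, which says only that these letters are not in it.

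To see which cells carry matricellular transcripts during overload, levels were summed within each group of the MOV library. The stromal groups held most of the UMIs of all 10 genes, and the 3 stromal gates differed in which members led. Comp was the most restricted: tenocytes held 78.8% of its UMIs in the kept MOV cells. Lrrc15 fibroblasts held 53.6% of the Thbs2 UMIs and 46.8% of the Cthrc1 UMIs. MuSCs held 23.8% of the Vcan UMIs, 15.7% of the Sparc UMIs and 15.3% of the Tnc UMIs, but between 1.46% and 9.44% of those of the other members, while being 1481 of 2985 cells. Together the 10 genes made up 3.35% of all UMIs in Lrrc15 fibroblasts, 3.34% in tenocytes, 2.95% in Pdgfra cells and 0.203% in MuSCs.

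**Figure D1:**
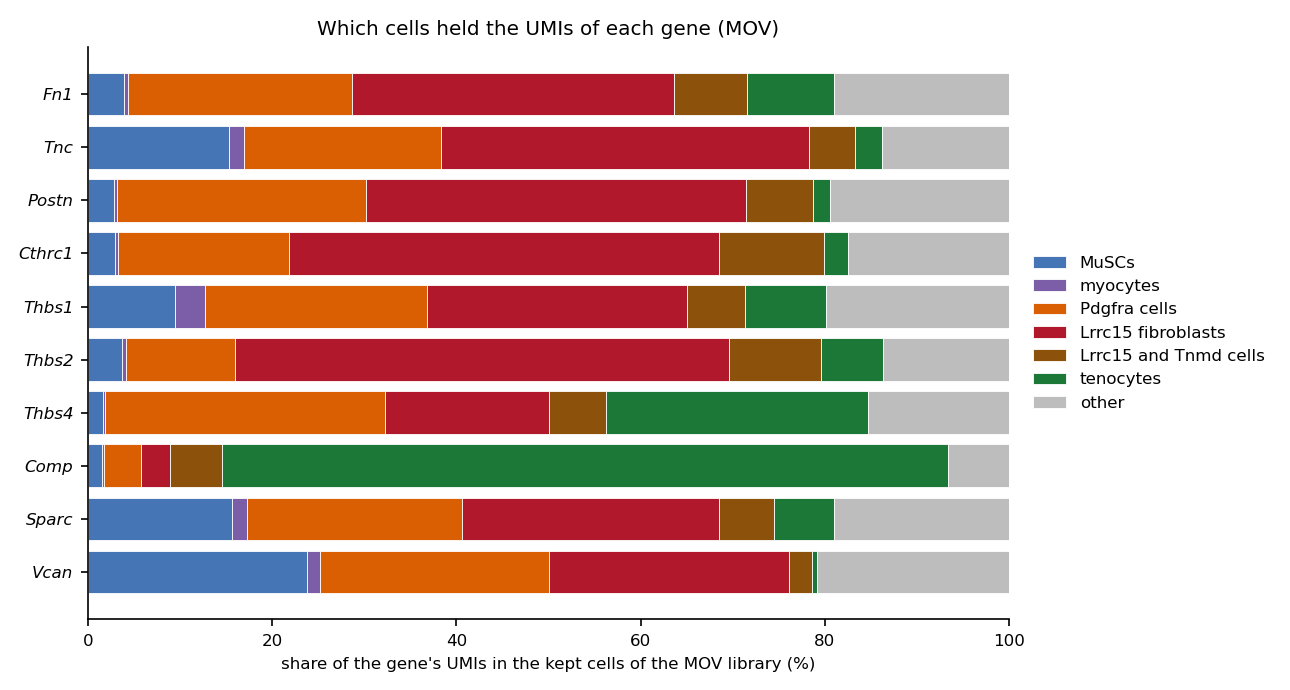
Share of each gene's UMIs (horizontal axis, %) by the cells that held them in the MOV library, with 1 bar per gene and 1 color per group of cells. Tenocytes held 78.8% of Comp but 0.514% of Vcan, and Lrrc15 fibroblasts held 53.6% of Thbs2.

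Against MuSCs, all 10 members were higher past 2-fold in Lrrc15 fibroblasts (16.6% of the 13554 genes with at least 20 UMIs over both groups were) and all 10 in Pdgfra cells (18.4% of genes). In tenocytes 9 were higher (15.8% of genes) and 1, Vcan, was lower (21.5% of genes). The median log2 ratio of the members was 4.70 in Lrrc15 fibroblasts, 4.13 in Pdgfra cells and 4.16 in tenocytes, beside medians over all tested genes of -0.21, -0.12 and -0.20.

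Fibronectin was high in every stromal group. Fn1 stood at 3033 CPM (interval 2994 to 3072) in Pdgfra cells, 3721 CPM (3681 to 3762) in Lrrc15 fibroblasts and 3998 CPM (3915 to 4082) in tenocytes, against 83.2 CPM (80.5 to 85.9) in MuSCs. The levels of these single gates were thus within 1.32-fold of each other and 36.5-fold to 48.1-fold above MuSCs. Cells past both the Lrrc15 and the Tnmd gate stood higher, at 4949 CPM.

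Among the single gates, periostin, tenascin C and Cthrc1 were highest in fibroblasts and lower in tenocytes. Postn was at 6179 CPM in Pdgfra cells, 8077 CPM in Lrrc15 fibroblasts and 1444 CPM in tenocytes, and the tenocyte level was 4.28-fold below that of Pdgfra cells. Tnc was at 1103, 1761 and 511 CPM in the same order. Cthrc1 was at 1201 CPM in Pdgfra cells, 2595 CPM in Lrrc15 fibroblasts and 562 CPM in tenocytes. For Tnc and Cthrc1 the deficit in tenocytes was close to the 2-fold line (2.16-fold and 2.14-fold), and for Cthrc1 it turned when each cell was given equal weight, to a log2 ratio of 0.35 in place of -1.09. Tenocytes spread widely in Cthrc1, from a median cell at 274 CPM to 6166 CPM at the 90th percentile, and 24 of the 136 held fewer than 2000 UMIs.

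The thrombospondins went separate ways. Thbs1, which can activate latent TGF-β, was nearly level across the stroma, with 928 CPM (907 to 950) in Pdgfra cells, 931 CPM (911 to 951) in Lrrc15 fibroblasts and 1148 CPM (1104 to 1193) in tenocytes. The intervals of the fibroblast gates overlap. Thbs2 was the member that set Lrrc15 fibroblasts apart most: it stood at 1112 CPM (1090 to 1134) there against 288 CPM (277 to 301) in Pdgfra cells, a 3.86-fold difference, and at 563 CPM (532 to 595) in tenocytes. Thbs4 showed the reverse order among fibroblasts, with 3333 CPM in Pdgfra cells and 1671 CPM in Lrrc15 fibroblasts, and it reached 10615 CPM in tenocytes, 3.18-fold above Pdgfra cells. Comp stood at 2291 CPM (2229 to 2355) in tenocytes, against 34.1 CPM (30.1 to 38.5) in Pdgfra cells and 23.3 CPM (20.2 to 26.7) in Lrrc15 fibroblasts. The pentameric pair therefore shared its highest group, but Thbs4 was also a fibroblast transcript whereas Comp exceeded the Pdgfra cell level 67.2-fold in tenocytes.

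Sparc was nearly flat across the single stromal gates, at 12857 CPM in Pdgfra cells, 13132 CPM in Lrrc15 fibroblasts and 12190 CPM in tenocytes. Vcan was the only member lower in tenocytes than in MuSCs. It stood at 585 CPM (568 to 602) in Pdgfra cells, 526 CPM (511 to 541) in Lrrc15 fibroblasts and 41.2 CPM (33.2 to 50.6) in tenocytes, which is 14.2-fold below Pdgfra cells and 2.31-fold below the 95.2 CPM (92.4 to 98.1) of MuSCs. The MuSC contrast fell inside 2-fold with doubled gate minimums (log2 ratio -0.63) and with DESeq2 factors (-0.98).

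**Figure D2:**
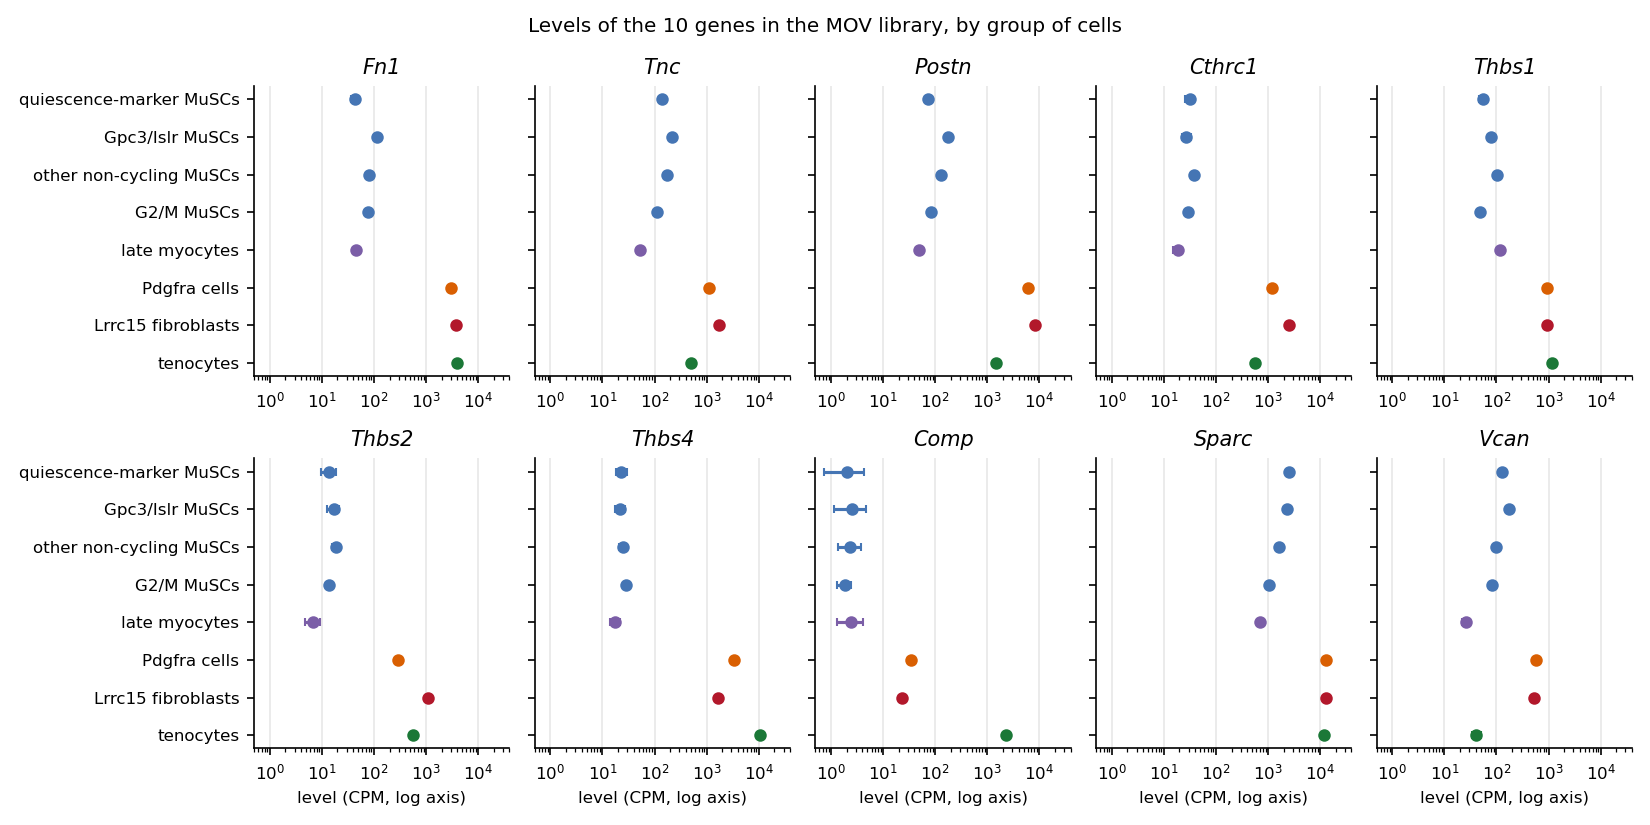
Level of each gene (CPM, log axis, 1 panel per gene) in 8 groups of the MOV library. Points are summed CPM with 95% Poisson intervals, which are mostly narrower than the point; blue marks MuSCs, purple myocytes, orange Pdgfra cells, red Lrrc15 fibroblasts and green tenocytes. Comp peaks in tenocytes at 2291 CPM, and Vcan falls there to 41.2 CPM.

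Between the fibroblast gates, Lrrc15 fibroblasts exceeded Pdgfra cells past 2-fold for 2 members, Thbs2 and Cthrc1 (3.47% of 11797 genes), and no member was lower past 2-fold (6.58% of genes), although Thbs4 lay at the line, 1.99-fold lower. The median over the members was 0.16, against -0.06 over all tested genes. Among 34 other matricellular genes, 5 were higher and 7 were lower. The highest of these was Tnn (tenascin N), at 52.9 CPM in Lrrc15 fibroblasts and 0.658 CPM in Pdgfra cells, followed by Acan (aggrecan, 68 UMIs against 1) and Smoc1 (67 against 12). The lowest were Tnxb (tenascin X), at 30.2 against 217 CPM, Fbln7 (11.7 against 55.0 CPM) and Spp1 (osteopontin), at 487 against 2060 CPM. Of 14 genes listed as receptors, which include the laminin receptor subunit Itga7, 11 were tested and all 11 stayed within 2-fold.

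Tenocytes differed from Pdgfra cells past 2-fold at 6 of the 10 members. Comp and Thbs4 were higher (6.9% of 11079 genes), and Vcan, Postn, Tnc and Cthrc1 were lower (15.3% of genes). Under TMM and DESeq2 factors the lower set was 2, Vcan and Postn. Of the 34 other matricellular genes 9 were higher, led by Cilp2 (251 against 0.658 CPM), Spock3 (62 UMIs against 1) and Matn4 (135 against 1.32 CPM), and 10 were lower. The lowest of the companion genes were Efemp1 (1.34 against 93.5 CPM), the integrin subunit Itgb3 (0 UMIs against 96) and Smoc2 (71.2 against 599 CPM).

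Cells past both the Lrrc15 and the Tnmd gate (n = 43) carried the most Cthrc1, 3693 CPM, and the most Fn1, 4949 CPM, of the groups compared. They also ranked first for Sparc (16605 CPM), Postn (8312 CPM), Thbs2 (1216 CPM) and Thbs1 (1210 CPM). For Thbs1 the interval overlapped that of tenocytes. Their Comp level, 240 CPM, lay between those of the single gates, but it was uneven, with a median cell at 13.4 CPM and 64.6% of the UMIs in the top 10% of cells. Vcan was at 304 CPM in them. Whether these are single cells or a fibroblast and a tenocyte in 1 droplet was not tested.

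**Figure D3:**
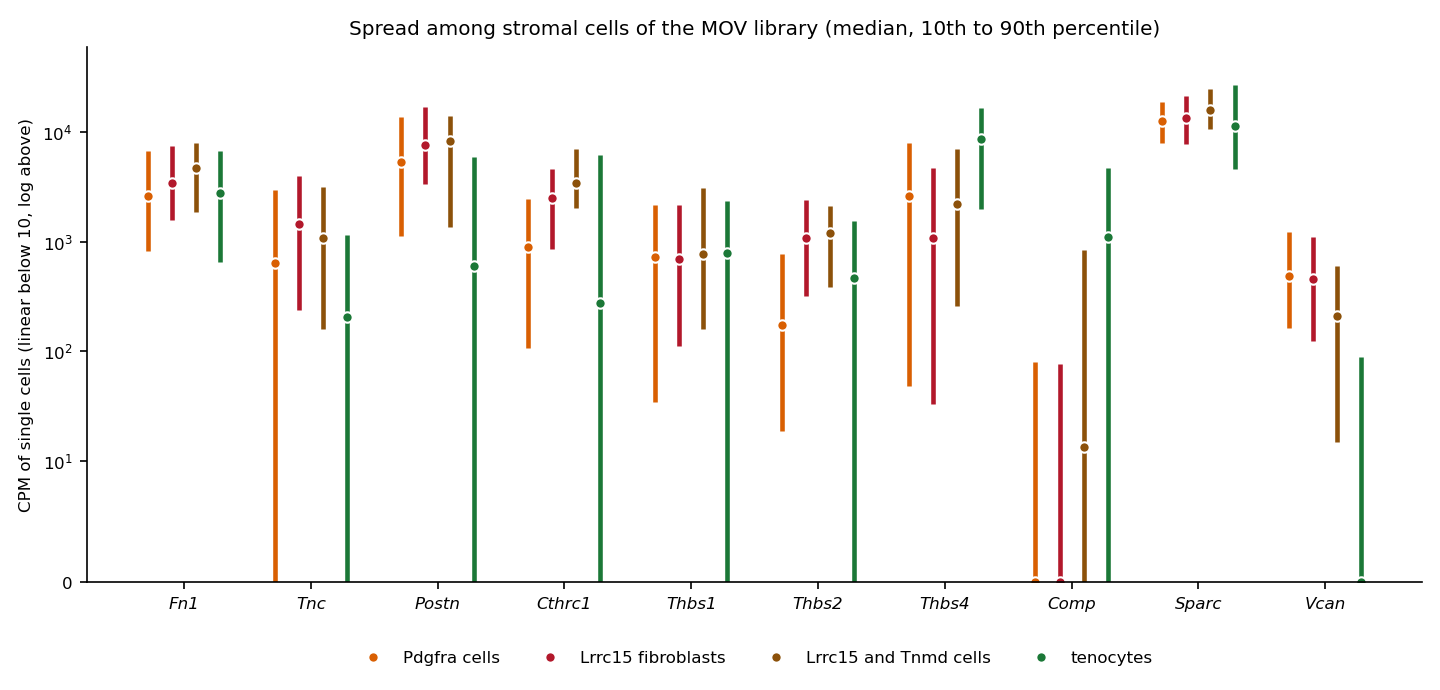
Spread of the 10 genes among single stromal cells of the MOV library: points are the median cell and bars run from the 10th to the 90th percentile of CPM, on an axis that is linear below 10 and logarithmic above. Sparc runs from 7928 to 18848 CPM in Pdgfra cells, whereas Comp is at 0 in the median Pdgfra cell and at 1107 CPM in the median tenocyte.

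Single cells of 1 gate differed in some members more than in others. In Pdgfra cells Thbs4 ran from 48.0 CPM at the 10th percentile to 7966 CPM at the 90th, around a median of 2637 CPM, whereas Sparc ran from 7928 to 18848 CPM around 12716 CPM. Comp UMIs in Pdgfra cells were concentrated, with 88.0% in the top 10% of cells. The median Pdgfra cell and the median Lrrc15 fibroblast each held UMIs of 9 of the 10 genes, the median tenocyte of 8 and the median MuSC of 5.

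In MuSCs the members fell into a higher and a lower set by their level relative to the stroma, that is, to the pooled Pdgfra cells, Lrrc15 fibroblasts, tenocytes and cells of both the Lrrc15 and Tnmd gates. Vcan in MOV MuSCs was 19.9% of the stromal level, Sparc 11.1%, Tnc 10.0% and Thbs1 6.33%. Fn1 was 2.32%, Thbs2 2.02%, Cthrc1 1.69%, Postn 1.65%, Thbs4 0.893% and Comp 0.723%. The stromal genes Col1a1, Dcn and Cd248, which were not used to gate, were at 2.12%, 3.24% and 2.35%, and Pi16 and Dpp4 at 1.07% and 0.790%. Col12a1 lay between the sets, at 7.69%. The fibroblast genes Lrrc17 and Adam12, by contrast, were at 47.5% and 32.3%, so that the share is not a constant for stromal genes.

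**Figure D4:**
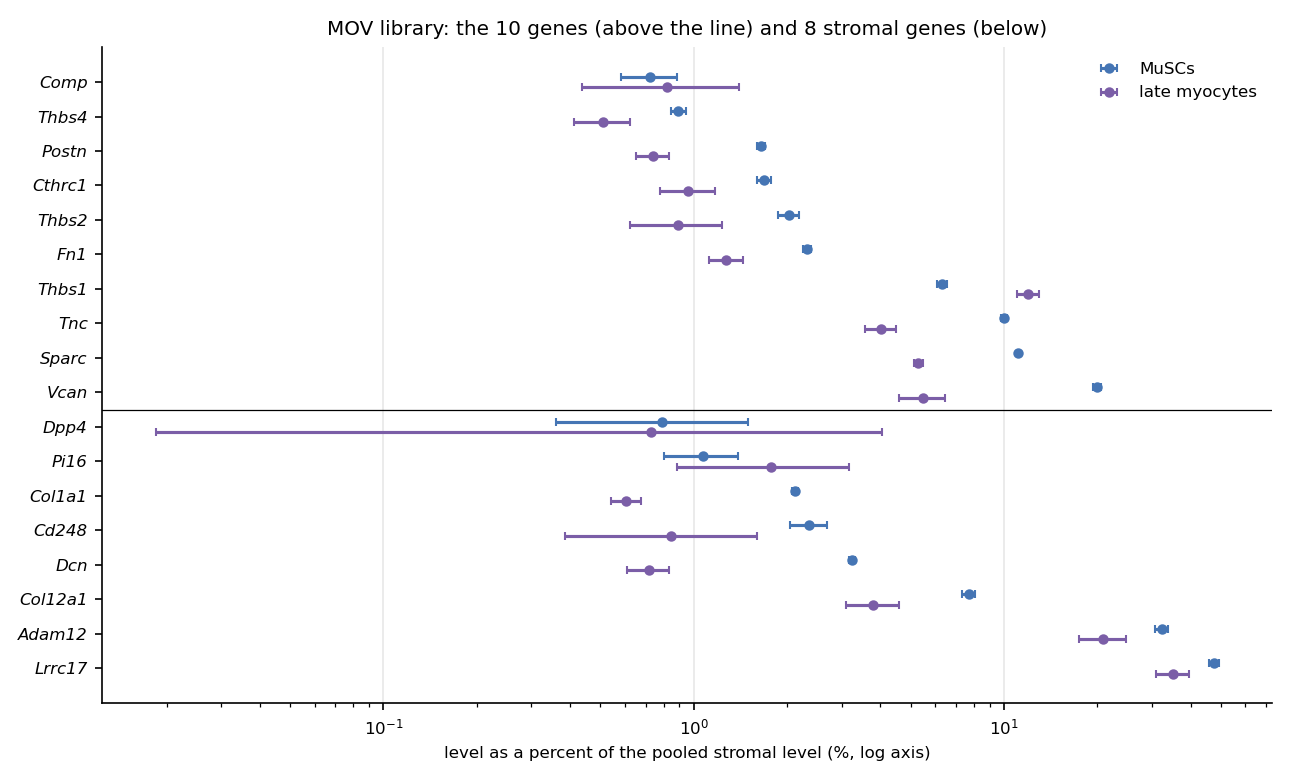
Level in MuSCs (blue) and late myocytes (purple) of the MOV library as a percent of the pooled stromal level (log axis, 95% Poisson intervals), for the 10 genes above the line and 8 stromal genes below it. Vcan, Sparc, Tnc and Thbs1 lie at 6.33% or more in MuSCs, and the other 6 genes at 2.32% or less.

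Of the 1481 MOV MuSCs, 117 (7.90%) held a UMI of Pdgfra, Lrrc15 or Tnmd, and of the 110 sham MuSCs none did. Without the 117 cells Fn1 was 1.84% of the stromal level, Postn 1.36%, Cthrc1 1.31% and Thbs4 0.706%, and Vcan was 19.8%, Sparc 11% and Tnc 9.43%. After each cell was thinned to 2000 UMIs, Cthrc1 was found in 5.29% of MuSCs and 5.83% of late myocytes, and Thbs4 in 4.88% and 2.91% (median depths 22442 and 43977 UMIs). Vcan was found in 15% of MuSCs (13.2% to 16.9%) and 3.88% of late myocytes (1.07% to 9.65%), and Tnc in 20.8% and 7.77%. Without thinning, Cthrc1 was found in 45.4% of MuSCs and 49.5% of late myocytes, and Vcan in 67.1% and 36.7%. The share of Cthrc1 in MuSCs was thus no higher than in late myocytes, with overlapping intervals. The part of free RNA or of stromal fragments in the MuSC levels was not tested.

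Among MuSC states the 4 members with the larger shares did not follow a common order. Sparc was at 2560 CPM in MuSCs high in immediate-early genes and 2542 CPM in MuSCs with quiescence markers (Chrdl2, Calcr and Spry1 among them), with overlapping intervals. It was at 2373 CPM in MuSCs high in interferon-induced genes and 2293 CPM in Gpc3/Islr MuSCs. Lower levels were 1655 CPM in other non-cycling MuSCs, 1613 CPM in S-phase and 1043 CPM in G2/M MuSCs. Early myocytes held 778 CPM and late myocytes 698 CPM. Vcan ran from 172 CPM in Gpc3/Islr MuSCs and 128 CPM in quiescence-marker MuSCs to 82.9 CPM in G2/M MuSCs, 31.5 CPM in early and 26.1 CPM in late myocytes. Tnc was highest in Gpc3/Islr MuSCs (217 CPM) and lowest in late myocytes (53.7 CPM). Thbs1 went the other way at the end, with 54.4 CPM in quiescence-marker MuSCs, 101 CPM in other non-cycling MuSCs and 117 CPM in late myocytes. The intervals of late myocytes (108 to 126) and other non-cycling MuSCs (93.7 to 108) overlapped for Thbs1.

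Gpc3/Islr MuSCs were also set against all the other non-cycling MuSCs pooled (n = 637, quiescence-marker, immediate-early and interferon MuSCs included). Of the 218 quiescence-marker MuSCs in that pool, 73 also passed the Gpc3/Islr gate. Gpc3/Islr MuSCs differed at no member past 2-fold in either direction (2.04% of 11473 genes were higher and 4.68% lower). The largest log2 ratios were 0.72 (interval 0.58 to 0.86) for Vcan and 0.54 for Fn1, and the lowest was -0.57 for Thbs4. With doubled gate minimums 3 members passed 2-fold, Postn (1.56), Thbs4 (1.41) and Fn1 (1.37). The doubling applied to the myogenic, stromal and other cell type gates, while the Gpc3/Islr gate stayed as it was. It thus also changed which cells past both a myogenic and a stromal gate were left out. Of the companion genes 4 matricellular genes were higher, led by Edil3 (18.7 against 5.94 CPM), and Ccn2 was among 3 matricellular genes that were lower (92.3 against 239 CPM).

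Myocytes held less of most members than MuSCs. Vcan was 3.37-fold lower, at 28.3 against 95.2 CPM, with a log2 ratio of -1.75 (-1.94 to -1.57). Fn1, Postn, Sparc and Tnc also passed the line, by 2.06-fold at most, so that 5 members were lower past 2-fold (11.7% of 13393 genes) and none was higher (7.33% of genes). Because those 4 lay at the line, the count was 1 with TMM factors, with DESeq2 factors and without the 117 MuSCs that held a stromal UMI, and Vcan alone remained. Thbs1 was 1.69-fold higher in myocytes (104 against 61.7 CPM). Of the receptor genes Itga4, which pairs with β1 integrin to bind fibronectin, was higher in myocytes (9.36 against 2.08 CPM), and Itga7, a laminin receptor subunit, was within 2-fold (144 against 103 CPM).

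Some receptor genes were lower in stroma than in MuSCs. Itga7 was lower in Lrrc15 fibroblasts than in MuSCs (4.95 against 103 CPM, a log2 ratio of -4.37), and Sdc4 (syndecan 4, a co-receptor for fibronectin) was lower as well (91.8 against 943 CPM). Of the 14 receptor genes, 7 were higher and 4 lower in Lrrc15 fibroblasts than in MuSCs, beside 16.6% and 18.9% of all tested genes. In Pdgfra cells 6 were higher and 4 lower than in MuSCs, beside 18.4% and 16.2%.

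To compare conditions, the same groups were set against each other between the libraries. In Pdgfra cells 8 of the 10 members were higher in MOV past 2-fold (14.7% of 10621 genes) and none was lower (16.1% of genes). The median log2 ratio was 2.25, against 0 over all tested genes. In sham Pdgfra cells no UMI of Postn, Tnc or Cthrc1 was found among 241711 UMIs, with an upper limit of 15.3 CPM. The MOV levels were 6179, 1103 and 1201 CPM. Set against a floor of 3 counts (12.4 CPM), which lies below that limit, these were 498-fold, 88.9-fold and 96.7-fold higher. Thbs4 was at 24.8 CPM (6 UMIs, 9.11 to 54.0) in sham and 3333 CPM in MOV, a log2 ratio of 7.07 with an interval of 5.95 to 8.52.

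The other members differed less in these cells, and Thbs1 and Vcan not past 2-fold. Sparc was at 1994 CPM in sham and 12857 CPM in MOV Pdgfra cells, 6.45-fold higher, and Fn1 at 861 and 3033 CPM, 3.52-fold higher. Thbs2 was at 112 and 288 CPM. Thbs1 was at 782 CPM (674 to 902) in sham and 928 CPM (907 to 950) in MOV, 1.19-fold higher, and Vcan at 302 CPM (237 to 380) and 585 CPM, 1.94-fold higher. Comp rested on 3 sham UMIs from 1 cell, and its log2 ratio of 1.46 turned to -0.17 with doubled gate minimums. The sham cells did carry stromal markers, with Dcn at 26250 CPM and Pi16 at 385 CPM, against 4601 and 258 CPM in MOV Pdgfra cells. Dpp4 was also higher in sham (78.6 against 34.1 CPM). Col1a1 went the other way, at 1059 CPM in sham and 7538 CPM in MOV, and Cd248 was at 269 and 290 CPM. Of the kept sham cells 23 lay in this gate, and their median depth was 11341 UMIs against 32992 in MOV. After thinning to 2000 UMIs Postn was found in 0 of 23 sham and 96.0% of MOV Pdgfra cells, with an upper bound of 14.8% for sham, and Tnc in 0 of 23 and 56.2%.

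Among the companion genes in Pdgfra cells 9 of 34 matricellular genes were higher and 9 lower in MOV, 7 were within 2-fold and 9 were under the minimum of 20 UMIs, beside 14.7% higher and 16.1% lower among all tested genes. Spp1, a secreted ligand of integrins and CD44, was at 70.3 CPM in sham and 2060 CPM in MOV, Fbln7 at 4.14 CPM (1 UMI) and 55.0 CPM, and Cilp at 211 and 2685 CPM. Tnxb was lower in MOV (217 against 1150 CPM), as were Tgfbi (51.2 against 265 CPM) and Spock2 (21 UMIs against 7, at 2.76 and 29.0 CPM).

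In tenocytes, a comparison added after the files were seen, 5 members were higher in MOV (13% of 7660 genes) and 1 was lower (12.8% of genes). Postn was at 118 CPM (76.9 to 172) in sham and 1444 CPM in MOV, 12.3-fold higher, and Cthrc1 at 136 CPM (91.6 to 194) and 562 CPM, 4.14-fold higher. Sparc was 2.18-fold higher (5593 against 12190 CPM) and Fn1 2.03-fold higher (1973 against 3998 CPM), the latter inside 2-fold under 3 alternatives (log2 ratio 0.83 to 0.96). Vcan rested on 1 sham UMI. Thbs4 was at 13640 CPM in sham and 10615 CPM in MOV, and Comp at 3186 and 2291 CPM, both within 2-fold. Of the tenocyte markers, Tnmd was at 1901 CPM in sham and 1672 CPM in MOV, Scx at 932 and 532 CPM and Fmod at 12196 and 4839 CPM. Thbs1 was 2.73-fold lower in MOV, at 1148 against 3132 CPM (2903 to 3374), and with a mitochondrial limit of 5% its log2 ratio was -0.69 in place of -1.45. Of the companion genes Ccn1, a matricellular gene that responds early to stimulation, was lowest in MOV (254 against 1290 CPM).

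In MuSCs 7 members were higher in MOV past 2-fold (11.9% of 13071 genes) and none was lower (9.23% of genes). These were 3 of the higher set and 4 of the lower set named above against the pooled stroma. Vcan was at 17.5 CPM (11.5 to 25.7) in sham and 95.2 CPM in MOV, Sparc at 625 CPM (586 to 667) and 1466 CPM, and Tnc at 54.0 CPM (42.8 to 67.2) and 134 CPM. The Tnc ratio was inside 2-fold with a mitochondrial limit of 5% (log2 ratio 0.97) and with doubled gates (0.93). Fn1 was at 1.35 CPM (2 UMIs) and 83.2 CPM, Postn at 5.40 CPM (8 UMIs) and 110 CPM, Cthrc1 at 2.70 CPM (4 UMIs) and 32.6 CPM, and Thbs4 at 1.35 CPM (2 UMIs) and 30.5 CPM. Thbs1 (60.7 and 61.7 CPM) and Thbs2 (15.5 and 15.2 CPM) were each within 1.02-fold.

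Without the shared barcodes 100 sham MuSCs remained, and the log2 ratio was 1.81 in place of 1.31 for Tnc, 5.73 in place of 4.34 for Postn, 4.98 in place of 3.60 for Cthrc1, 3.89 in place of 4.50 for Thbs4 and -0.52 in place of 0.02 for Thbs1. Sparc (1.23) and Vcan (2.43) hardly moved. Fn1 then had no sham UMI, and its log2 ratio was 4.74 at the floor set for genes without a UMI. This value is not a lower limit, since the upper limit in sham was 3.83 CPM, against 83.4 CPM in MOV. The count of members higher in MOV was again 7. For Fn1, Postn, Cthrc1 and Thbs4 the MOV level in MuSCs was 0.893% to 2.32% of the stromal level, and late myocytes of the same library held 45.6, 49.1, 18.5 and 17.4 CPM of them. Sham fiber droplets held 0.670 CPM of Fn1, 98.4 CPM of Thbs4 and no UMI of Postn or Cthrc1 among 2987199 UMIs. The 51 MOV fiber droplets held 35.2 CPM of Fn1 (5 UMIs) and 70.4 CPM of Postn (10 UMIs). Their Cthrc1 (49.3 CPM, 7 UMIs) and Thbs4 (127 CPM, 18 UMIs) stood above the MOV MuSC levels. Without the shared barcodes 30 MOV droplets held 39.3 CPM of Fn1, 78.6 of Postn, 39.3 of Cthrc1 and 126 of Thbs4. The MOV library also held many more gated stromal cells than the sham library, as counted above. The part of free stromal RNA in these 4 ratios was not tested.

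The MOV MuSCs held 548 G2/M and 135 S-phase cells, the sham MuSCs 7 and 3, so quiescence-marker MuSCs (56 in sham, 218 in MOV) were compared on their own. Of 9 members tested, 7 were higher in MOV (20.1% of 8199 genes) and 1 was lower (6.87% of genes). Sparc was at 578 CPM (512 to 649) in sham and 2542 CPM (2485 to 2600) in MOV, 4.40-fold higher, and a UMI was found in 80.4% of sham and 100% of MOV cells, or 55.4% and 99.1% after thinning. Vcan was at 14.3 CPM (5.74 to 29.4) and 128 CPM, 8.97-fold higher, and Tnc at 18.4 CPM (8.40 to 34.9) and 137 CPM, 7.45-fold higher. Fn1, Postn, Cthrc1 and Thbs4 had no sham UMI, and their ratios at the floor of 3 counts were 3.74-fold to 12.1-fold. These shrank with thinning, which left 4 members higher in all. With a mitochondrial limit of 5% Cthrc1 (0.78) and Thbs4 (0.30) were inside 2-fold too. Thbs1 was lower in MOV, at 54.4 CPM (46.4 to 63.4) against 131 CPM (101 to 167), a log2 ratio of -1.26. A single sham cell held 26 of its 64 UMIs, and without it the sham level was 78.8 CPM. No barcode of this comparison was shared. Of the companion genes Spp1 was at 1204 CPM in MOV with 0 UMIs in sham. Its log2 ratio was 7.62 at the floor of 3 counts, with a lower limit of 7.32. Tnxb (6.64 against 65.3 CPM) and Ccn2 (459 against 1388 CPM) were lower.

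Thbs4 was also found outside the stroma. Sham fiber droplets held 294 Thbs4 UMIs, 98.4 CPM (87.5 to 110; 101 CPM without the shared barcodes), in 131 of 496 droplets (26.4%), or 16.6% after thinning to 2000 UMIs, and no droplet held more than 22. In the same droplets Comp and Tnmd had 0 UMIs, whereas sham tenocytes held 704 Comp UMIs beside 3014 Thbs4 UMIs. The source of the Thbs4 UMIs in these droplets was not tested. Droplets led by Myh1 (n = 148) held 150 CPM (125 to 178), those led by Myh4 (n = 275) 87.8 CPM (74.1 to 103) and those led by Myh2 (n = 55) 41.4 CPM (24.5 to 65.5), so the Myh1 interval lay above both others. Without the shared barcodes the levels were 147, 90.3 and 48.3 CPM, and the intervals of Myh1 and Myh4 droplets did not overlap. The other 9 members had between 0 and 17 UMIs in the sham fiber droplets.

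Outside the stroma Postn reached 1884 CPM in MOV Schwann cells (n = 47) and 982 CPM in mural cells (n = 30), and Sparc 9166 CPM in mural and 6238 CPM in Schwann cells. Thbs1 stood at 827 CPM in immune (median cell 72.3 CPM), 697 CPM in mural and 546 CPM in endothelial cells, below its stromal levels, and at 8.53 CPM in Schwann cells. Fn1 was at 946 CPM in immune cells and 22.7 CPM in Schwann cells. In immune cells a few cells carried the Fn1 level, with a median cell at 105 CPM and 84.0% of the UMIs in the top 10% of cells. The sort was set to remove CD45+ and CD31+ cells, so the immune (n = 72) and endothelial cells (n = 25) are those that passed it.

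Over the 20 groups of the MOV library the members followed each other unequally on the log2(CPM + 1) scale. Pearson's r was 0.94 for Sparc and Thbs2, 0.93 for Cthrc1 and Fn1, 0.89 for Comp and Thbs4, and lowest for Comp and Vcan, at 0.38. These groups share 1 library and its free RNA. By the same measure the genes most like Thbs4 were Prg4 (r = 0.99), Itgbl1 (0.97) and Clec11a (0.97), and those most like Comp were Ptx4, Fmod and Zfp185 (0.92 to 0.93). Aebp1, Tmed3 and Chsy3 were most like Thbs2 (0.97 to 0.98), P4ha3, Oaf and Snhg18 most like Postn (0.95 to 0.98), Hand2, Serf2 and Ptgs2os2 most like Cthrc1 (0.95 to 0.96), and Ccdc80, Slc8a1 and Pamr1 most like Fn1 (0.96). For Sparc they were Selenom, Ikbip and Rcn3 (0.97 to 0.98), for Tnc Copb2, 1500011B03Rik and Pofut2 (0.94), for Thbs1 Hic1, Slc8a1 and Fuca2 (0.91 to 0.93) and for Vcan Bmper, Mmp19 and Col5a1 (0.87 to 0.90).

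In all barcodes of each library, before any grouping, Sparc stood at 707 CPM in sham and 4929 CPM in MOV, Postn at 214 and 2042 CPM and Cthrc1 at 22.3 and 575 CPM. In sham 1 ungated cell held 1108 of the 1564 Postn UMIs, and the only Lrrc15 fibroblast held 90 of the 163 Cthrc1 UMIs. The barcodes of these cells were shared by the libraries. Comp was the only member higher in the sham library, at 99.6 against 77.2 CPM. These totals move with the number of stromal cells, and fewer cells of a type cannot be told apart there from less RNA per cell.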

How the data were processed

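scRNA-seq (10x Genomics 3′) libraries of sorted plantaris cells were used, 1 sham and 1 MOV. The authors aligned reads to mm10 with Cell Ranger 6.0.0 and deposited, for each library, a filtered table of raw UMI counts without normalization. Cell Ranger 6.0.0 and mm10 are also in the submitters' processing notes, beside R 4.0.2 and Seurat 4.0.2.

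From the deposited counts, cells with at least 10% mitochondrial UMIs were removed, and then the cells most like simulated doublets (scrublet in scanpy 1.11.5, 0.8% per 1000 cells). Doublets that resemble 1 type can escape this step. Cells were gated by UMIs of fixed marker lists with minimums of 2 to 5 UMIs, set from the marker sums alone, and cells past 2 lineage gates were left out as ambiguous, except those of the Lrrc15 and Tnmd gates. Not every marker gene of these lists is reported here. UMIs were summed over a group, scaled to CPM and given with exact Poisson intervals (95%). Log2 ratios have exact conditional intervals. A count of 0 was set to a floor of 3 counts, which is not the limit of the exact interval. The ratio was set to 0 where this floor says nothing. Genes with at least 20 UMIs over both groups were tested against a 2-fold line, which is a rule of size and no statistical test. Shares of cells are given as found and after thinning to 2000 UMIs, with Clopper-Pearson intervals. The ratio was tested on simulated data. The 10 members, the companion list and the gates were chosen with earlier results of these data known. Named are all 10 members, up to 3 companion genes at each end of a comparison, and the 3 genes most correlated with each member. Alternatives were mitochondrial limits of 5% and 20%, doublet-like cells kept, doubled gates, thinned cells, the mean of cell CPM, TMM (edgeR 4.0.16) or DESeq2 1.42.0 factors and no filter on low counts. Doubled gates are doubled minimums of the lineage gates, which also decide the ambiguous cells. The gates of MuSC states and myocytes stayed unchanged there. After the files were seen, barcodes of both libraries were left out, and MuSCs with a UMI of Pdgfra, Lrrc15 or Tnmd. Python 3.11.15, numpy 2.4.6, scipy 1.17.1, pandas 2.3.3, matplotlib 3.10.9 and R 4.3.3 were used.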

Additional observations from a re-analysis of the deposited data

Results flagged for a closer look

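Tnc in Pdgfra cells against MuSCs went opposite ways in the 2 libraries. In sham the log2 ratio was -2.12, since 23 Pdgfra cells held 0 Tnc UMIs and 110 MuSCs held 80. The value rests on the floor of 3 counts, and the upper limit of its interval was -1.79. In MOV the log2 ratio was 3.04, with 8377 UMIs in Pdgfra cells and 5999 in MuSCs. Without the shared barcodes 100 sham MuSCs held 37 Tnc UMIs (38.4 CPM, against 54.0 CPM with them), still above the upper limit of 15.3 CPM in sham Pdgfra cells. With 1 library each, the difference between the libraries was not tested.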

How the results depend on the processing

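Of the values past 2-fold, each under every alternative (792 in all), 788 kept their direction and 749 were still past 2-fold. These counts include values that could not change. Without the filter on low counts all 72 ratios stay as they are. Leaving out shared barcodes, or MuSCs with a stromal UMI, cannot move a comparison of groups that hold none. The value turned for Cthrc1 in tenocytes against Pdgfra cells with the mean of cell CPM (0.35) and for Comp in Pdgfra cells of MOV against sham with doubled gates (-0.17), and in 2 more cases it was set to 0 at the floor. The counts of members that moved by over 1.5 times were these, and the cause was not tested. Tenocytes against MuSCs had 0 lower, not 1, with doubled gates and with DESeq2 factors, and tenocytes against Pdgfra cells had 2 lower, not 4, with TMM and with DESeq2 factors. With the mean of cell CPM there was 1 lower, not 0, in Lrrc15 fibroblasts against Pdgfra cells and in Gpc3/Islr MuSCs, and 1 higher, not 0, in myocytes. Gpc3/Islr MuSCs had 3 higher, not 0, with doubled gates. Myocytes had 3 lower, not 5, with doubled gates, and 1 with TMM factors, DESeq2 factors or MuSCs without a stromal UMI. For MOV against sham, MuSCs had 1 lower, not 0, with thinned cells, quiescence-marker MuSCs had 4 higher, not 7, with thinned cells, and tenocytes had 0 lower, not 1, with a mitochondrial limit of 5%. Smaller moves also occurred: with a mitochondrial limit of 5% quiescence-marker MuSCs had 5 higher in place of 7, MuSCs 6 in place of 7 and Pdgfra cells 7 in place of 8, MuSCs had 6 with doubled gates, and myocytes had 4 lower in place of 5 with the mean of cell CPM. Scaling moved the median of all genes by up to 0.23 (DESeq2 factors, tenocytes against MuSCs). No paired analysis was possible because the groups share only 1 replicate number. Depth limits the sham groups most: 1 UMI in 23 Pdgfra cells is 4.14 CPM.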
